A study of Mus musculus with 24 samples.

Results

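The genes described here are those of the cell cycle and of DNA replication in the mouse adrenal gland, 43 genes named by textbook roles; the rule uses none of their values, but it was set with earlier results of these arrays known. Each was found by its gene name on the array, Cdk1 also under its older name Cdc2a, and was read from its brightest probe. Of the 43 genes, 40 passed the filter on dim probes, which kept a probe if 3 or more of the 24 arrays measured it well above background, among 31196 features (genes or unnamed probes) that passed it. Of the 40, 36 were well above background on all 24 arrays. The other 3 genes, cyclin E2 (Ccne2), Aurora kinase B (Aurkb) and the centromere protein Cenpf, were well above background on 0 of 24 arrays with the probes used here, so they are named and not described further.

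The study hybridized total RNA of whole adrenal glands to 24 arrays of 1 colour (Cy3), 3 for each of 8 groups. All mice were of the C57BL/6 strain, either wild type (WT) or null for Kcnk3, which encodes the potassium leak channel TASK-1. For each genotype the males were sham operated or castrated, and the females were sham treated or injected with testosterone. The labels give no age, dose, timing or number of animals behind a sample, and nothing says that the 3 samples of a group came from separate animals, so the p-values below measure the spread between these samples, which may be technical.

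Cells that divide pass through an S phase, in which the MCM helicase, loaded at origins beforehand, is opened to copy the DNA. Mitosis follows, which is driven by Cdk1 with A- and B-type cyclins and watched by the spindle checkpoint. It ends when the anaphase-promoting complex destroys the cyclins. Transcripts of these genes accumulate in dividing cells and are largely absent from resting cells, which is why Mki67 and its partners serve as markers of proliferation. In the adult adrenal gland most division takes place near the capsule, from where new cortical cells move inward, and the gland differs between the sexes, with the X-zone of the inner cortex lost in males at puberty under androgen.

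The promoters of a few of the genes are shown first, since mitotic and licensing genes are known to be driven through different promoter elements. Whether these elements bear on the differences below was not tested. Promoter sequences, each 250 bases before to 50 bases after the start site, came from RefSeq (assembly GRCm38.p6) and were matched for 36 of the 43 genes, with 38 promoters in all. The motifs searched on both strands were the cell cycle homology region (CHR, TTTGAA), the CCAAT box (CCAAT) and the E2F core in the forms TTCCCGC and TTGGCGC. The capitals mark matches, and a match on the opposite strand reads as its reverse complement. Ccnb1 and Kif23, the genes with a called difference below, are shown with Mcm2 and Birc5, which came next in the average over genotype. Cdk1 and Mcm6 were added after the motifs had been counted, as examples of a mitotic and a licensing promoter. The sequences read 5′ to 3′ on the strand of the gene.
Ccnb1: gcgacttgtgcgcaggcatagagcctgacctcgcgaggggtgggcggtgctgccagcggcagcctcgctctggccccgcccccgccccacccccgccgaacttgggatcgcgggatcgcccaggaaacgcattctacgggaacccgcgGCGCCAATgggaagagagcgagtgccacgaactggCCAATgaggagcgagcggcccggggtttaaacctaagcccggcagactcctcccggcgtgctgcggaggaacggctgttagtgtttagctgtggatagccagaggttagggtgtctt
Kif23: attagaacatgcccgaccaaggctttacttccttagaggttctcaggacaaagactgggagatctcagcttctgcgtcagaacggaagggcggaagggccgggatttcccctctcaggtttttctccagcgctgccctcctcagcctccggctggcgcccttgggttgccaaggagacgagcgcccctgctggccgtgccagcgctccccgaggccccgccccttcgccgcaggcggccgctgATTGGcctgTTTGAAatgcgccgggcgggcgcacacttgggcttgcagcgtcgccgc
Mcm2: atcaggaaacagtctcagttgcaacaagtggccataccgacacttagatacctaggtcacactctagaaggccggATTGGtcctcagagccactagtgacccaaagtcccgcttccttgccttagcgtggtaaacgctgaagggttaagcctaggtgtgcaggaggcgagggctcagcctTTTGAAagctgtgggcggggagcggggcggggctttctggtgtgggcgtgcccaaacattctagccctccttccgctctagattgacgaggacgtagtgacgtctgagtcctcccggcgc
Birc5: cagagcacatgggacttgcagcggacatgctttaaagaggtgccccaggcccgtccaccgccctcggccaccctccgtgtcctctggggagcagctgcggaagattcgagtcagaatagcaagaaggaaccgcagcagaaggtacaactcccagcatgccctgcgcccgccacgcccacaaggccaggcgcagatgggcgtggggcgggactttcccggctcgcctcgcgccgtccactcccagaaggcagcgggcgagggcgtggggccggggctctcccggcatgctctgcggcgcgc
Cdk1: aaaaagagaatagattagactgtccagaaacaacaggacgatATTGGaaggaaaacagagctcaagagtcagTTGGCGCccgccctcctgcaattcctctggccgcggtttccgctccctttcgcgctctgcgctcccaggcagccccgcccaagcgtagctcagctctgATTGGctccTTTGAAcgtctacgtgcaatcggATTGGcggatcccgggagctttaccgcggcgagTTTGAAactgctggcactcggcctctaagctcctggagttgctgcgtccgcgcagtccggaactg
Mcm6: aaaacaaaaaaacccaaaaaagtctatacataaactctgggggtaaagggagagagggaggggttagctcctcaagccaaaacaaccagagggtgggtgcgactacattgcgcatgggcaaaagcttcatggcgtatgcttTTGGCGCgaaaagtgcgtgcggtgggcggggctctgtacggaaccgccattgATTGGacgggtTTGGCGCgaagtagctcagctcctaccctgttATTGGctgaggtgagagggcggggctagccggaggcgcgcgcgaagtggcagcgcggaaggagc

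The Ccnb1 promoter (chr13:100786437-100786736, minus strand) held CCAAT boxes that began 99 and 67 bases before the start site, and the first overlapped an E2F core on the opposite strand. The Kif23 promoter (chr9:61946750-61947049, minus strand) held a CCAAT box 7 bases before the start site and a CHR at base 3 after it. In the Mcm2 promoter (chr6:88898731-88899030, minus strand) a CHR began 70 bases before the start site. None of the motifs was found in the Birc5 window (chr11:117848987-117849286, plus strand), which says only that these letters are not in that window. The Cdk1 promoter (chr10:69352863-69353162, minus strand) held CHRs at 71 and 15 bases before the start site. It also held CCAAT boxes at 208, 80 and 48 bases and an E2F core at 178 bases. The Mcm6 promoter (chr1:128359656-128359955, minus strand) held E2F cores at 109 and 46 bases and CCAAT boxes at 57 and 14 bases.

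Over the 38 promoters, 19 held a CHR (50%), against 17.89% of all 32851 promoters in the table. A CCAAT box was found in 29 (76.32%, against 37.41%), both elements together in 19 (50%, against 6.953%) and either E2F core in 10 (26.32%, against 6.806%). The CHR lay in 9 of 12 promoters of the chromosome and spindle genes, in 5 of 7 of the checkpoint genes and in 4 of 6 of the cyclins and mitotic kinases, but in 1 of 9 of the licensing genes and 0 of 4 of the nucleotide and fork genes. The E2F cores lay in 7 of 9 licensing promoters, 0 of 4 of the nucleotide and fork genes, 2 of 6 of the cyclins and kinases, 0 of 7 checkpoint promoters and 1 of 12 of the chromosome and spindle genes. These are descriptions of letters, not of binding.

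The following facts of the arrays bear on all results. Kcnk3 was lower in null than in WT arrays by 2.28 ± 0.16 on the log2 scale (limma, SE, adjusted p = 2.08e-07, average over the 4 pairs of groups), with levels of 5.00 to 6.46 in WT and 2.08 to 4.96 in null arrays. The markers fixed for steroidogenic cells (8) and chromaffin cells (5) were well above background on all 24 arrays. Sex-linked transcripts went against the label, above 10% of the level in the other sex, on 9 arrays: WT sham females 2 and 3 (Y-linked signal at 25.4% and 45.5% of WT sham males), all 3 testosterone-injected WT females (19.2% to 36.02%), null sham males 1 and 2 and null castrated males 1 and 2 (Xist at 17.4% to 58.01% of null sham females). Albumin was high in WT sham male 3 and testosterone-injected null female 1. The arrays lay on 4 slides, which held replicates 1, 2 and 3 of each group in turn except that WT sham female 3 and testosterone-injected WT female 3 lay on slide 4, and these arrays had an RNA integrity number (RIN) of 3, against 5 to 9 elsewhere. From 57.0% to 64.7% of spots were well above background, and no spot of these genes was saturated.

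Levels below are log2 signals relative to the 75th percentile of the same array, so 0 is the level of that percentile and -1 is a factor of 2 below it. They can be compared between arrays for a gene but not between genes, since probes differ in brightness. Each difference is a log2 difference of group means with its standard error from limma, each group has 3 arrays, and adjusted p-values (Benjamini-Hochberg) are over all 31196 features, called under 0.05. With 3 arrays a group the precision is low. In whole glands, fewer dividing cells and less RNA of these genes per cell cannot be told apart.

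The 36 genes detected on all arrays mostly deviated in the same direction on an array. On each WT sham male array 2 of the 36 genes were above their own mean, and on null sham female 1 and testosterone-injected WT female 1 these were 35 of 36. Taking for each array the median deviation of the 36 genes from their own means over the 24 arrays, WT sham males stood lowest, at -0.65, -0.88 and -0.67. Castrated WT males were at -0.07, -0.43 and -0.25, null sham males at -0.03, -0.48 and -0.49, and null castrated males at 0.03, -0.01 and -0.08. The females lay higher and spread more widely, at 0.54, -0.20 and -0.23 for WT sham, 0.97, 0.41 and -0.43 for WT with testosterone, 1.03, 0.07 and 0.44 for null sham and 0.87, 0.58 and 0.31 for null with testosterone. WT sham males did not overlap any other group by this measure, and the null castrated males were the tightest group (SD 0.05, n = 3) where WT females with testosterone were the widest (SD 0.71, n = 3). The array on slide 1 was the highest of its group in 8 of the 8 groups.

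**Figure D1:**
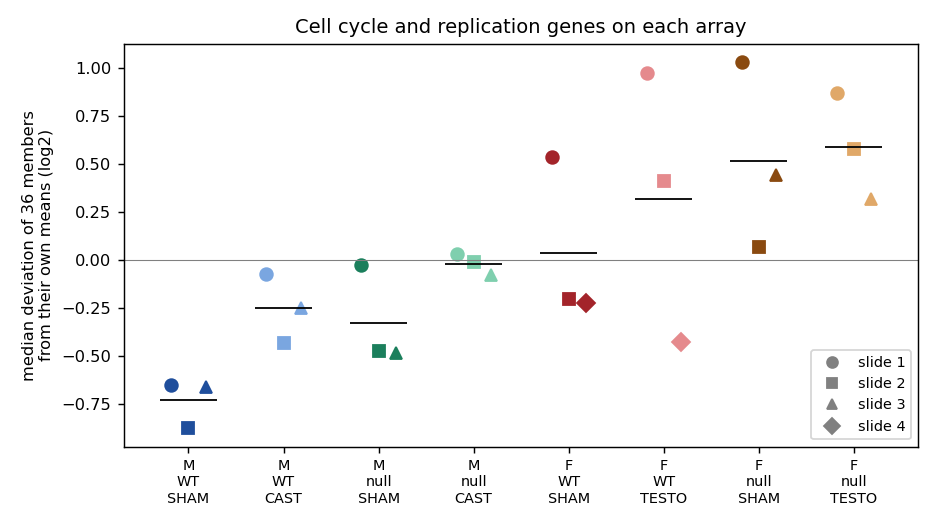
Median log2 deviation of 36 cell cycle and replication genes from their own means over the 24 arrays (vertical axis), with 1 point per array in each of the 8 groups (horizontal axis). Point shapes give the slide and the line is the group mean; WT sham males lie lowest, from -0.88 to -0.65, and the female groups spread from -0.43 to 1.03.

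Gene by gene, 35 of the 40 genes were below their own mean on all 3 WT sham male arrays, 23 on all 3 null sham male arrays and 19 on all 3 castrated WT male arrays. In contrast 29 genes were above their own mean on all 3 arrays of null females with testosterone and 24 on all 3 of null sham females, while 0 genes were so on WT sham females, whose array 1 was high and arrays 2 and 3 were near or below the mean. The highest array of a gene was null sham female 1 for 23 genes and testosterone-injected WT female 1 for 9. The lowest was WT sham male 2 for 18, WT sham male 3 for 7 and WT sham male 1 for 4. The span from the lowest to the highest array was wide for Bub1 (10.2-fold) and narrow for Mad2l1 (1.87-fold), Pcna (1.93-fold) and Mcm2 (2.01-fold). For Kif23 it was 10.3-fold, or 7.85-fold over the 23 arrays on which its probe was well above background, since its lowest array, WT sham male 2, was not. By role the median span was 7.38-fold for cyclins and mitotic kinases, 5.64-fold for checkpoint genes, 5.34-fold for chromosome and spindle genes, 3.94-fold for nucleotide and fork genes and 2.48-fold for licensing genes.

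**Figure D2:**
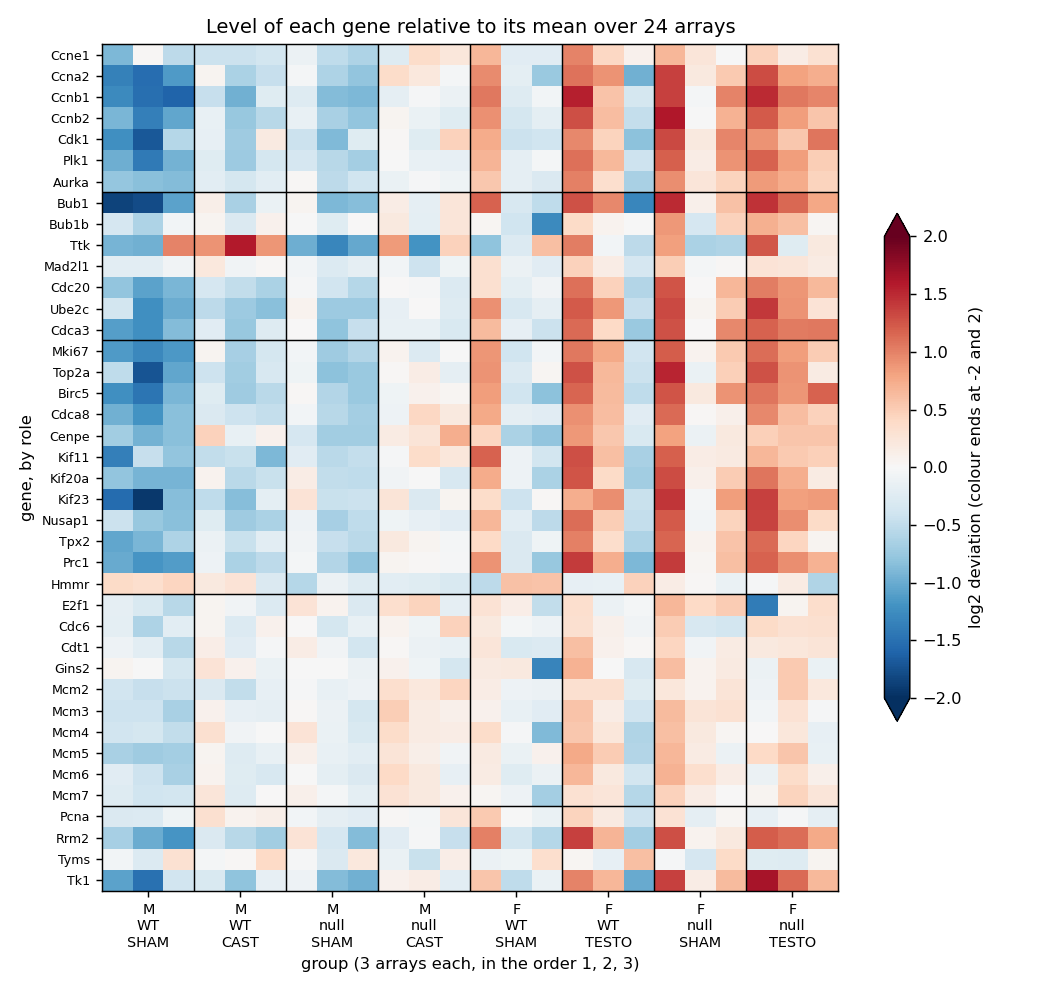
Log2 deviation of each of the 40 genes from its own mean over 24 arrays, with genes in rows by role and arrays in columns by group in the order 1, 2, 3; colours end at -2 and 2. The blue columns of WT sham males and the red columns of most null females run through nearly all mitotic genes, paler through the licensing genes, and Hmmr, Tyms and Ttk break the pattern. Null sham female 2 is near 0 (median 0.07 over the 36 genes detected on all arrays).

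In the comparison of sham females with sham males among WT mice, 37 of the 40 genes were higher on average in females, and Ccnb1, which encodes cyclin B1, the partner of Cdk1 at entry into mitosis, was the gene that passed the test. Over all features 2.00% were called in this comparison and 12.8% had an unadjusted p under 0.05, against 1 and 22 of the 40 genes, all 22 higher in females. The median difference of the 40 genes was 0.86, against 0.01 over all features, of which 50.78% were positive. The groups did not overlap, with all females above all males, for 24 of the 40 genes and for 8.21% of all features.

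Ccnb1 stood at -3.46, -3.69 and -3.78 in WT sham males and at -1.12, -2.44 and -2.24 in WT sham females. All 3 females were above all 3 males, and female 1 was more than 1 log2 unit above the other females. The difference was 1.71 ± 0.42 (adjusted p = 0.0414). It was larger within slide 1 (2.34) than within slide 2 (1.25), and with the slide as a block it was 2.02 (adjusted p = 0.00201). Without the arrays whose sex-linked signal went against the label, which leaves WT sham female 1 alone in its group, it was 2.52 (adjusted p = 0.032, with the lone array assumed to vary like the other groups). The call was lost in 14 of the 24 leave-outs of 1 array, with the highest adjusted p-values without WT sham female 1 (1.30, adjusted p = 0.212) and without WT sham male 1, 2 or 3 (adjusted p = 0.101, 0.134 and 0.114). Without the 2 arrays with albumin the adjusted p was 0.106. Female 1 carried a low Y-linked signal (1.21% of WT sham males, against 0.114% to 0.18% in null females), and females 2 and 3, the lower ones, carried more (25.4% and 45.5%); the part of this signal in the difference was not tested.

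The other cyclins and kinases had differences of similar size that did not pass the test in WT mice. Polo-like kinase 1 (Plk1), which acts at mitotic entry and in cytokinesis, stood at -1.89, -2.34 and -1.86 in males and -0.23, -1.10 and -0.96 in females, without overlap (difference 1.27 ± 0.33, adjusted p = 0.0551). Cyclin A2 (Ccna2), which serves both S phase and mitosis, stood at -2.51, -2.68 and -2.28 in males and -0.21, -1.36 and -1.89 in females (1.34 ± 0.46, adjusted p = 0.18). For cyclin B2 (Ccnb2) the difference was 1.22 ± 0.42 (adjusted p = 0.179), for Cdk1 it was 1.14 ± 0.43 (adjusted p = 0.233) and for Aurora kinase A (Aurka) 0.85 ± 0.30 (adjusted p = 0.198). Cyclin E1 (Ccne1), which acts at the start of S phase, had the smallest difference of this group, 0.54 ± 0.28. The median of the 7 genes was 1.22.

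Among the checkpoint and anaphase genes, Bub1, the checkpoint kinase of the kinetochore, was faint in WT sham males (-6.27, -6.20 and -5.48) and stood at -3.23, -4.73 and -4.92 in WT sham females (1.69 ± 0.56, adjusted p = 0.153). Cdc20, the activator of the anaphase-promoting complex, stood at -0.83, -1.12 and -0.96 in males and 0.27, -0.25 and -0.11 in females (0.94 ± 0.33, adjusted p = 0.182). Ube2c, the ubiquitin-conjugating enzyme of that complex, had a difference of 1.00 ± 0.43 and Cdca3 of 1.08 ± 0.39 (adjusted p = 0.200). Bub1b and Mad2l1, which hold the complex back until chromosomes are attached, had differences of -0.20 ± 0.31 and 0.16 ± 0.19. The kinase Ttk was well above background on only 4 arrays, so its differences are mostly between signals near background.

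Among the chromosome and spindle genes, Mki67, the classical proliferation marker that coats mitotic chromosomes, stood at -0.92, -1.07 and -0.93 in WT sham males and at 1.10, -0.18 and 0.16 in WT sham females. The groups did not overlap and female 1 was again the highest (1.33 ± 0.37, adjusted p = 0.0712). Kif23, the kinesin of the central spindle and midbody, stood at -5.09, -5.49 and -4.40 in males and -3.19, -3.97 and -3.53 in females (1.43 ± 0.39, adjusted p = 0.0724), and male 2 was not well above background. Cdca8, a subunit of the chromosomal passenger complex, differed by 1.11 ± 0.32 (adjusted p = 0.0959), Birc5 (survivin) of the same complex by 1.07 ± 0.40 and topoisomerase Top2a by 1.31 ± 0.46 (adjusted p = 0.183). Hmmr, a spindle-associated protein, was the gene of this group with a negative difference (-0.18 ± 0.27). The median of the 12 genes was 1.06.

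The replication genes differed less. Mcm2, a subunit of the MCM helicase, stood at 0.58, 0.50 and 0.53 in WT sham males and 1.11, 0.86 and 0.84 in WT sham females, which did not overlap (0.40 ± 0.17, adjusted p = 0.298). For Mcm5 the difference was 0.72 ± 0.27 (adjusted p = 0.229) and for Mcm3 0.40 ± 0.20 (adjusted p = 0.422). Gins2, of the active helicase, had a negative difference (-0.21 ± 0.33), with WT sham female 3 at -3.32. Rrm2, the regulated subunit of ribonucleotide reductase, differed by 0.97 ± 0.46 (adjusted p = 0.386), thymidine kinase Tk1 by 0.95 ± 0.46 (adjusted p = 0.394), and Pcna, the sliding clamp, by 0.34 ± 0.20 (adjusted p = 0.527). The median was 0.34 over the 10 licensing genes and 0.65 over the 4 nucleotide and fork genes. Of the 26 genes of the cyclin, checkpoint and chromosome groups, Ccne1 and Ccna2 among them, 15 differed by at least 2-fold and 19 had an unadjusted p under 0.05. Of the 14 licensing, nucleotide and fork genes these counts were 0 and 3. The difference between these role groups was not tested.

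Among Kcnk3 null mice the same comparison was positive for all 40 genes, with a median of 0.90 against 0.04 over all features, of which 54.82% were positive. With limma 0 of the 40 genes were called, where 0.740% of all features were. An unadjusted p under 0.05 was found for 25 genes, all higher in females, and for 9.90% of all features, and 25 genes did not overlap between groups, against 10.9% of all features. Plk1 had the smallest p, at -1.25, -1.48 and -1.60 in null sham males and 0.28, -0.77 and -0.02 in null sham females (1.27 ± 0.33, adjusted p = 0.0896). Ccnb1 stood at -2.44, -3.06 and -3.09 in males and -0.81, -2.23 and -1.19 in females (1.45 ± 0.42, adjusted p = 0.143). Null sham female 2 was the lowest female for both genes and still above all 3 males.

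The order of the roles was like that in WT mice. The median was 1.27 for cyclins and kinases, 0.97 for checkpoint genes, 0.95 for chromosome and spindle genes, 0.51 for nucleotide and fork genes and 0.33 for licensing genes. Cdk1 differed by 1.35 ± 0.43 (adjusted p = 0.200), Tk1 by 1.36 ± 0.46 (adjusted p = 0.240), Birc5 by 1.22 ± 0.40 (adjusted p = 0.218), Cdca3 by 1.17 ± 0.39 (adjusted p = 0.224) and Mki67 by 1.06 ± 0.37 (adjusted p = 0.258). Mcm3 differed by 0.54 ± 0.20 (adjusted p = 0.307) and Mcm6 by 0.56 ± 0.23 (adjusted p = 0.408). Thymidylate synthase (Tyms) had the smallest difference, 0.04 ± 0.24.

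The slide moved these values. Within slides 1 and 2 the median difference of the 40 genes between WT sham females and males was 1.30 (38 of 40 positive) and 0.64 (38 of 40), and WT sham female 3 has no male counterpart on slide 4. In null mice it was 1.16, 0.57 and 0.86 on slides 1, 2 and 3, with 40, 38 and 39 genes positive. With the slide as a block, 21 of the 40 genes were called higher in females in WT and 14 in null mice, where 4.41% and 1.86% of all features were called. With RIN as a covariate they were 21 and 7, against 3.43% and 1.21% of all features. The genes called with the slide as a block in WT mice were Aurka, Birc5, Bub1, Ccna2, Ccnb1, Ccnb2, Cdc20, Cdca3, Cdca8, Cdk1, Kif11, Kif20a, Kif23, Mki67, Nusap1, Plk1, Prc1, Rrm2, Top2a, Tpx2 and Ube2c. Only Rrm2 among them is of the licensing, nucleotide and fork groups. Without the arrays with sex-linked signal against the label the median was 1.30 in WT and 1.02 in null mice.

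**Figure D3:**
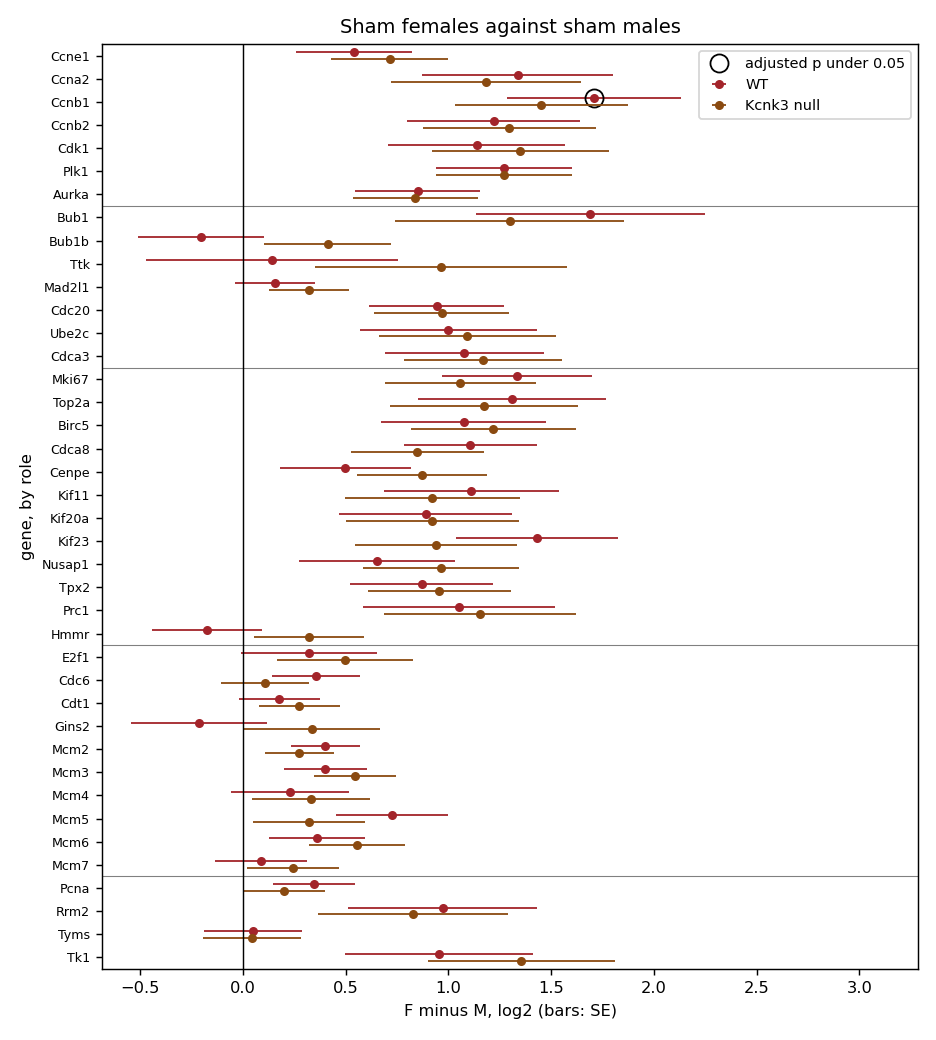
Log2 difference of sham females minus sham males (horizontal axis, bars are standard errors from limma) for each of the 40 genes by role, in WT and in Kcnk3 null mice; the ring marks an adjusted p under 0.05. All 40 differences are above 0 in null and 37 of 40 in WT mice, and the licensing genes lie nearer to 0 than the mitotic genes.

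Averaged over the 4 pairs of groups of equal sex and treatment, 36 of the 40 genes were higher in null than in WT mice, and Kif23 was the gene that passed the test. Of all features, 2.40% were called in this average and 14.5% had an unadjusted p under 0.05, against 1 and 23 of the 40 genes, 22 of the 23 higher in null. The median was 0.42, against -0.03 over all features, of which 44.76% were positive. Of the 40 genes, 0 reached 2-fold. The males with Xist above the 10% mark were all null, and the females with Y-linked signal above it were all WT. Most of the 40 genes were higher in sham females than in sham males. This imbalance therefore ran in the same direction as higher levels in null mice. Its part in the genotype differences here and below was not tested.

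Kif23 differed by 0.78 ± 0.20 (adjusted p = 0.0414). Its levels were -5.09, -5.49 (not well above background) and -4.40 in WT and -3.28, -4.0 and -3.98 in null sham males, and -4.06, -4.41 and -3.75 in WT and -3.29, -3.85 and -3.50 in null castrated males. In sham females they were -3.19, -3.97 and -3.53 in WT and -2.12, -3.60 and -2.72 in null, and with testosterone -2.83, -2.62 and -4.01 in WT and -2.19, -2.74 and -2.70 in null. Sham males were the pair without overlap between genotypes. Within slides the null minus WT difference of Kif23 was 1.82, 1.49 and 0.42 in sham males, 0.76, 0.56 and 0.25 in castrated males, 1.07 and 0.37 in sham females and 0.64 and -0.12 in females with testosterone. With the slide as a block the average was 0.65 (adjusted p = 0.0468, with 3.38% of all features called). The call was lost in 18 of the 24 leave-outs of 1 array, with adjusted p-values from 0.0172 to 0.0846. Without the arrays of slide 4 it was 0.68 (adjusted p = 0.0815), and the average could not be fitted without the arrays with sex-linked signal against the label, which include all 3 WT females with testosterone.

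The next genes did not pass the test. Mcm2 differed by 0.32 ± 0.08 (adjusted p = 0.0535) and Birc5 by 0.70 ± 0.20 (adjusted p = 0.0756), with Cdc20 at 0.53 ± 0.16 (adjusted p = 0.103), Cdca3 at 0.60 ± 0.19 (adjusted p = 0.120) and Ccna2 at 0.67 ± 0.23 (adjusted p = 0.156). Cdk1 differed by 0.61 ± 0.22 (adjusted p = 0.164), Plk1 by 0.48 ± 0.17 (adjusted p = 0.158), Tk1 by 0.61 ± 0.23 (adjusted p = 0.200) and Mcm7 by 0.30 ± 0.11 (adjusted p = 0.198). The medians by role were 0.50 (cyclins and kinases), 0.44 (checkpoint), 0.42 (chromosomes and spindle) and 0.24 (licensing), and the nucleotide and fork genes had 0.21. The genes with negative averages were Hmmr (-0.35 ± 0.13, adjusted p = 0.215), Ttk (-0.40 ± 0.31), Tyms (-0.16 ± 0.12) and Pcna (-0.07 ± 0.10). Hmmr stood at 0.45, 0.39 and 0.50 in WT and -0.51, -0.05 and -0.19 in null sham males, opposite in sign to the other spindle genes in the same arrays.

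**Figure D4:**
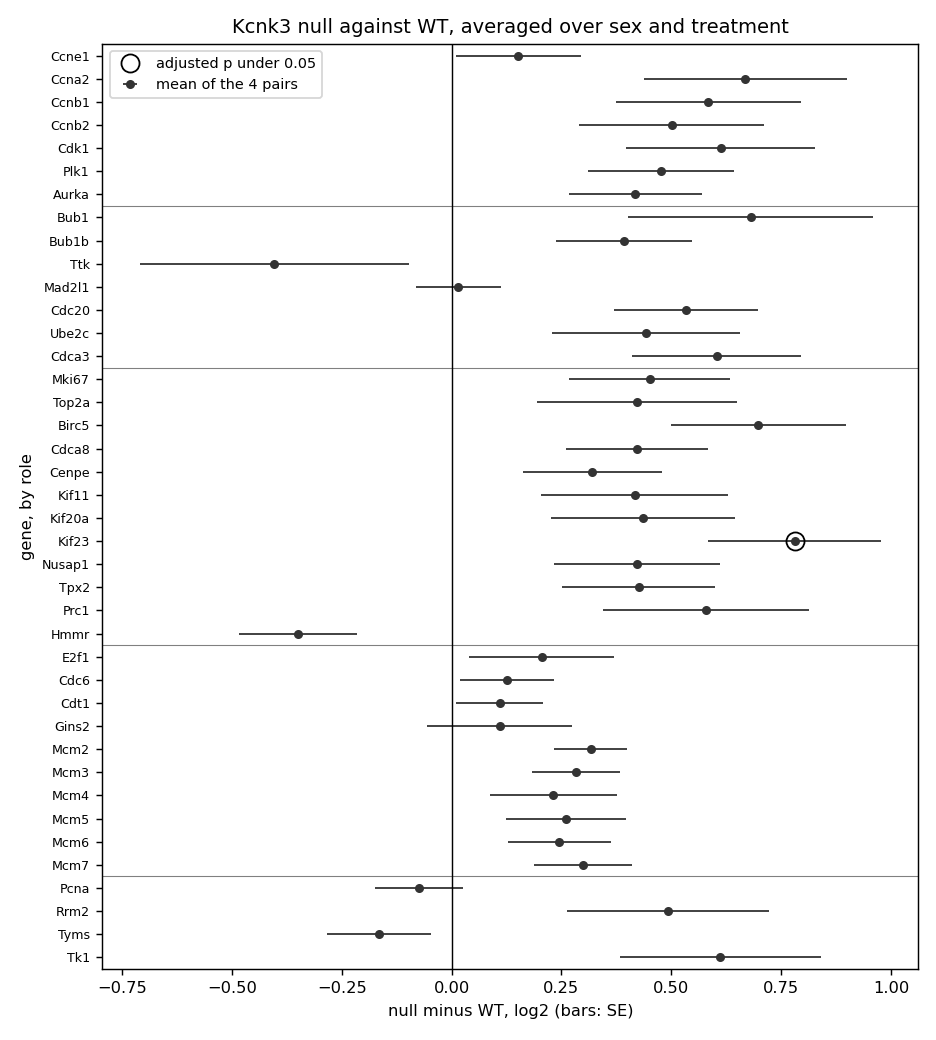
Log2 difference of Kcnk3 null minus WT, averaged over the 4 pairs of groups (horizontal axis, bars are standard errors from limma), for each of the 40 genes by role; the ring marks an adjusted p under 0.05. Kif23 is at 0.78, and 36 of the 40 genes lie above 0.

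Taken by pair, 0 of the 40 genes were called by limma for genotype. In sham males the median was 0.43 with 36 genes positive, 2 genes higher and 1 lower at an unadjusted p under 0.05, and 20 genes wholly above and 2 wholly below the WT arrays. Of all features 0.0833% were called, 3.85% had an unadjusted p under 0.05 and 6.84% lay wholly above. Wholly below the WT arrays lay 2451 of the 31196 features. Kif23 differed by 1.24 ± 0.39 (adjusted p = 0.863), Mcm5 by 0.59 ± 0.27 and Hmmr by -0.69 ± 0.27 (adjusted p = 0.999 for both). Within slides the median was 0.70, 0.40 and 0.26, and without the arrays with sex-linked signal against the label it was 0.31.

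In castrated males the median was 0.30 with 33 genes positive and 1 gene at an unadjusted p under 0.05. Over all features 0.699% were called, 7.14% had an unadjusted p under 0.05 and 8.48% lay wholly above the WT arrays, against 15 of the 40 genes. Mcm2 had the smallest p, at 0.67, 0.47 and 0.79 in WT and 1.30, 1.17 and 1.39 in null castrated males (0.64 ± 0.17, adjusted p = 0.110). The groups did not overlap, and the difference was 0.63, 0.69 and 0.60 within slides 1, 2 and 3. With the slide as a block Mcm2 was called (0.64, adjusted p = 0.0437), as were 1.21% of all features. Null castrated males 1 and 2 carried Xist signal, and without the arrays with sex-linked signal against the label the Mcm2 difference was 0.75 (adjusted p = 0.693, null castrated male 3 alone in its group).

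In sham females the median was 0.50 with 36 genes positive and 3 genes at an unadjusted p under 0.05, against 9.62% of all features, of which 0.474% were called. Bub1b differed by 0.87 ± 0.31 (adjusted p = 0.293), Birc5 by 0.91 ± 0.40 (adjusted p = 0.465) and Mcm3 by 0.49 ± 0.20 (adjusted p = 0.410). Within slides 1 and 2 the median was 0.42 and 0.26, with 38 and 34 genes positive. Without the arrays with sex-linked signal against the label it was -0.06, which sets WT sham female 1, of slide 1, against null arrays of 3 slides, and the share of genes with a positive difference ran from 45% to 97.5% over the settings tried. In females with testosterone the median was 0.28 with 30 genes positive and 1 gene (Cdca3, 0.82 ± 0.39, adjusted p = 0.614) at an unadjusted p under 0.05, against 8.01% of all features, of which 0.0353% were called. Without the arrays of slide 4 that median was -0.08, and within slides 1 and 2 it was -0.09 and 0.18, with 15 and 32 genes positive. Over all features the medians within slides 1 and 2 were -0.17 and 0.08, with 35.37% and 58.49% positive.

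Castration of WT males gave positive differences for 39 of the 40 genes, with a median of 0.52 against -0.05 over all features, and limma called 0 of them. An unadjusted p under 0.05 was found for 8 genes, all higher after castration, and for 6.11% of all features, of which 0.596% were called. The arrays of castrated males lay wholly above those of sham males for 20 of the 40 genes and for 7.96% of all features. Cenpe, the kinetochore motor that draws chromosomes to the metaphase plate, had the smallest p: -1.55, -1.81 and -1.69 in sham and -0.39, -1.0 and -0.77 in castrated WT males (0.96 ± 0.32, adjusted p = 0.356). Mki67 stood at -0.92, -1.07 and -0.93 in sham and 0.28, -0.44 and -0.13 in castrated males (0.87 ± 0.37, adjusted p = 0.650). Neither gene overlapped between the groups.

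Bub1 differed by 1.35 ± 0.56 (adjusted p = 0.638), Ccna2 by 0.99 ± 0.46 (adjusted p = 0.803), Cdk1 by 0.94 ± 0.43 (adjusted p = 0.775), Kif23 by 0.92 ± 0.39 (adjusted p = 0.677) and Ccnb1 by 0.90 ± 0.42 (adjusted p = 0.802). The median within slides 1, 2 and 3 was 0.64, 0.47 and 0.40. With the slide as a block Cdk1 and Cenpe were called (Cenpe 0.96, adjusted p = 0.0383), as were 1.05% of all features. No array of these groups carried sex-linked signal against the label. WT sham males are also the baseline of the sex and genotype comparisons above, so those comparisons share their 3 arrays.

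In null males castration gave a median of 0.32, with 37 genes positive, 0 called by limma and 2 at an unadjusted p under 0.05. Over all features 1.01% were called, 9.69% had an unadjusted p under 0.05 and 11.5% lay wholly above the sham arrays, against 10 of the 40 genes. Cenpe stood at -1.20, -1.54 and -1.55 in sham and -0.69, -0.59 and -0.12 in castrated null males, without overlap (0.96 ± 0.32, adjusted p = 0.225), and Mcm2 differed by 0.42 ± 0.17 (adjusted p = 0.387). With the slide as a block Cenpe was called (0.96, adjusted p = 0.0279), as were 1.77% of all features. The median within slides was 0.09, 0.42 and 0.48.

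Testosterone in WT females gave a median of 0.28, with 38 genes positive, 0 called by limma and 2 at an unadjusted p under 0.05, against 5.95% of all features, of which 0.0737% were called. Bub1b differed by 0.69 ± 0.31 (adjusted p = 0.761) and Cenpe by 0.70 ± 0.32 (adjusted p = 0.785). Within slides 1 and 2 the median was 0.36 and 0.65, with 39 and 36 genes positive, and leaving out 1 array moved it from -0.03 (without testosterone-injected WT female 1) to 0.71. The groups overlapped for all 40 genes, testosterone-injected female 1 being high and female 3, of slide 4 and RIN 3, low. Of the 31196 features, 1066 lay wholly above and 1302 wholly below the sham arrays. In null females the median was 0.11, with 31 genes positive, 0 called and 1 gene at an unadjusted p under 0.05, against 6.15% of all features, of which 0.208% were called. Within slides 1, 2 and 3 the median was -0.21, 0.60 and -0.02, with 5, 38 and 19 genes positive. Over all features these medians were -0.19, 0.03 and 0.03, with 32.67%, 54.37% and 52.69% positive. Leaving out 1 array moved the median of the 40 genes from -0.06 (without null sham female 2) to 0.39, so its sign was not stable. The gene at an unadjusted p under 0.05 was E2f1, the transcription factor of S-phase entry. It stood at 0.43, 0.17 and 0.29 in sham and -1.63, -0.17 and 0.12 with testosterone (-0.86 ± 0.33, adjusted p = 0.621). Its lowest value was on the array with albumin.

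Averaged over the 4 pairs of high and low androgen (sham against castrated males, testosterone-injected against sham females, in each genotype), the median of the 40 genes was -0.12, with 6 genes positive and 0 called by limma, where 2.79% of all features were called and 12.1% had an unadjusted p under 0.05. This average joins pairs of opposite sign. The medians given above were positive for castration and for testosterone, which is lower with high androgen in males and higher with it in females. Mcm3 (-0.23 ± 0.10, adjusted p = 0.332) and Pcna (-0.21 ± 0.10, adjusted p = 0.406) were the 2 genes at an unadjusted p under 0.05. The interaction of genotype with androgen (null minus WT under low androgen less the same under high androgen) had a median of 0.02, 0 genes called by limma and 0 at an unadjusted p under 0.05, against 0.375% and 5.44% of all features. Its smallest p was that of Ccne1 (0.44 ± 0.28, adjusted p = 1).

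Other genes of the cell cycle, from lists outside the 40, gave further values on the same arrays. Of 52 other genes of mitosis, 45 were higher in WT sham females than in WT sham males, and 3 passed the test upward (5.77%, against 1.2% of all features). They were Cenph, of the inner kinetochore (1.32 ± 0.23, adjusted p = 0.00358), Nuf2, of the outer kinetochore (1.85 ± 0.44, adjusted p = 0.0335), and Dlgap5, a spindle protein (adjusted p = 0.0378). Dlgap5 was not well above background in WT sham males and was so in 2 of 3 females, so its difference holds only as at least 1.69-fold, and Nuf2 was well above background in 1 of 3 males. Such a bound sets the mean of the brighter group against, on each array of the dim group, the higher of the probe's own signal and the lowest signal among probes well above background. Cenph stood at -4.53, -4.90 and -4.38 in males and -3.24, -3.47 and -3.15 in females, a tighter female group than for Ccnb1. In null mice 49 of the 52 were positive and Cenph rose again (1.04 ± 0.23, adjusted p = 0.0346). For genotype 50 of the 52 were positive, and Cenpa, the histone variant of centromeres (0.59 ± 0.10, adjusted p = 0.00325), and Kif22 (0.59 ± 0.14, adjusted p = 0.0289) rose in null mice, which is 3.85% of the 52 genes against 1.21% of all features called higher. Of all settings tried, Cenpa was called in 35 of 35, Kif22 in 28 of 35 and, between the sexes in WT mice, Cenph in 33 of 36, Nuf2 in 27 of 35 and Dlgap5 in 22 of 35. The settings of the genotype average hold no fit without the arrays with sex-linked signal against the label.

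Of 50 other genes of DNA replication and repair, 33 were higher in WT sham females than males. In that comparison 4% were called higher and 2% lower, against 1.2% and 0.808% of all features. The histone chaperone Chaf1b (1.03 ± 0.24, adjusted p = 0.0249) and E2f7, a repressor among the E2F factors (1.36 ± 0.29, adjusted p = 0.0176), rose, and E2f2 fell by 0.90 (SE 0.22, adjusted p = 0.0368). E2f7 also rose after castration of WT males (1.40 ± 0.29, adjusted p = 0.0287), from -4.20, -4.92 and -4.24 to -2.83, -3.36 and -2.95. It was 1 of the 50 genes (2%), against 0.497% of all features called higher. In the genotype average Rad54l, of homologous recombination, rose in null mice (0.48 ± 0.12, adjusted p = 0.0342), 1 of the 50 genes (2%) against 1.21% of all features, and was called in 16 of 35 settings. Of 15 genes of entry into the cycle, cyclin D3 (Ccnd3) rose in WT sham females against males (0.74 ± 0.18, adjusted p = 0.0327) and Tfdp2, the partner of E2F factors, in null mice (0.50 ± 0.10, adjusted p = 0.00875). Each is 1 of the 15 genes (6.67%), against 1.2% of all features called higher between the sexes and 1.21% with genotype.

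Of 26 genes listed under cell cycle inhibitors and quiescence, 1 was called higher and 3 lower in the genotype average (3.85% and 11.5%). Over all features 1.21% were called higher and 1.19% lower. Wee1, the kinase that restrains Cdk1, rose in null mice (0.64 ± 0.09, adjusted p = 0.00069), and the p53 targets Cdkn1a (p21) and Ccng1 fell, by 0.96 (SE 0.20, adjusted p = 0.0142) and by 0.44 (SE 0.09, adjusted p = 0.0167). Cdkn2b fell by 0.38 (SE 0.10, adjusted p = 0.0429). Wee1, Cdkn1a and Ccng1 were called in 35 of 35 settings tried, and Cdkn2b in 13 of 35. These settings hold no fit without the arrays with sex-linked signal against the label, since the average cannot be fitted without them. Wee1 stood at -1.15, -1.31 and -1.18 in WT and -0.25, 0.09 and 0.24 in null castrated males (1.24 ± 0.18, adjusted p = 0.00141). The difference was 1.45 with null castrated male 3 alone, without the arrays with sex-linked signal against the label (adjusted p = 0.139).

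Wee1 also rose in sham females against sham males, by 0.89 ± 0.18 in WT (adjusted p = 0.0127) and by 1.01 ± 0.18 in null mice (adjusted p = 0.0109), and after castration in null males (0.85 ± 0.18, adjusted p = 0.0266). Its levels were -1.35, -1.21 and -1.19 in WT sham males and -0.16, -0.52 and -0.38 in WT sham females. Cdkn2d, an inhibitor of Cdk4 and Cdk6, fell in WT sham females by 0.70 (SE 0.16, adjusted p = 0.0227). Gas2l3, which stood in this list but is not an inhibitor of the cycle, rose in null sham females against null males (0.97 ± 0.18, adjusted p = 0.0119) and against WT females (0.88 ± 0.18, adjusted p = 0.0308). Between the sexes in WT mice, 1 of the 26 was called higher and 1 lower (3.85% each, against 1.2% and 0.808% of all features). In null mice 2 were called higher (7.69%, against 0.365%). With high androgen, Cdkn1c (p57), an inhibitor of cyclin-dependent kinases, fell by 0.96 (SE 0.15, adjusted p = 0.00109) and Wee1 by 0.39 (SE 0.09, adjusted p = 0.0242), while Cdkn2d rose (0.31 ± 0.08, adjusted p = 0.0347). These androgen calls held in 35, 31 and 19 of 35 settings, which hold no fit without the arrays with sex-linked signal against the label. Of the 26 listed genes, 1 was called higher and 2 lower with androgen (3.85% and 7.69%), against 1.1% and 1.69% of all features.

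These calls between the sexes also met the arrays with opposing sex-linked signal. Without those arrays, with WT sham female 1 alone in its group, Nuf2, E2f2 and Cdkn2d were called in WT mice (adjusted p = 0.0208, 0.0311 and 0.0458). Cenph (1.36, adjusted p = 0.0675), Wee1 (1.09, adjusted p = 0.087), Chaf1b (1.24, adjusted p = 0.0547), E2f7 (1.84, adjusted p = 0.0512), Ccnd3 (0.72, adjusted p = 0.199) and Dlgap5 (adjusted p = 0.378) kept their direction and lost the call. In null mice Cenph (1.20, adjusted p = 0.394), Wee1 (0.83, adjusted p = 0.582) and Gas2l3 (0.68, adjusted p = 0.741) did so too, with null sham male 3 alone in its group.

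**Figure D5:**
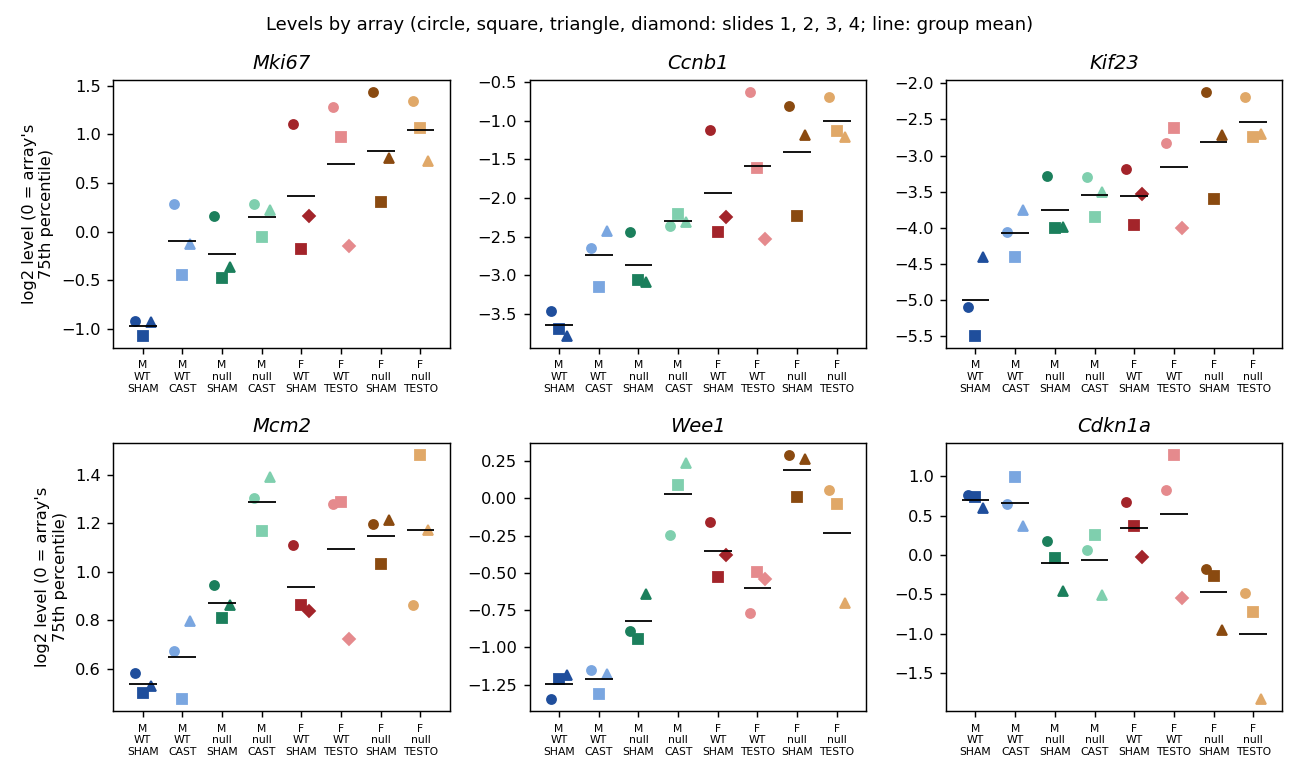
Log2 level relative to the 75th percentile of the array for Mki67, Ccnb1, Kif23, Mcm2, Wee1 and Cdkn1a, with 1 point per array in each of the 8 groups, shapes for slides and lines for group means. The group mean of WT sham males is the lowest for the first 5 genes, and Cdkn1a is lower in null than in WT groups.

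Levels of cell type markers in some of these groups are given next. The X-zone marker Akr1c18 rose in WT sham females against males (11.59 on the log2 scale, adjusted p = 0.00118) and after castration of WT males (11.77, adjusted p = 0.00211). The X-zone marker Pik3c2g was not well above background in WT sham males and rose at least 107.1-fold in WT sham females (adjusted p = 0.00203) and at least 118-fold in castrated males (adjusted p = 0.00347). The summed linear level of both markers was 0.0695 to 0.109 in WT sham males, 228 to 331 in castrated WT males and 134 to 372 in WT sham females. It was 161 to 248 in castrated null males and 0.083 to 129.2 in null sham males. In the other female groups it was 57.09 to 108.5 in WT with testosterone, 7.264 to 104.1 in null sham and 0.0901 to 0.120 in null with testosterone. The capsule and stroma markers (7 genes) summed to 72.6 to 95.6 in WT sham males, 88.1 to 106 in WT sham females and 121 to 135 in null sham females. The ranges of WT sham males and WT sham females overlapped, and Rspo3 of this list was lower in those females than in those males. The 8 macrophage and granulocyte markers summed to 16.2 to 18.0 in WT sham males and 21.2 to 38.9 in WT sham females. The 7 markers of T and B cells summed to 1.62 to 2.22 in WT sham males and 1.68 to 3.33 in WT sham females, which overlapped, with Cd79a well above background on 2 of 24 arrays. The part of these cells in the differences of the cell cycle genes was not tested.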

How the data were processed

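The arrays hold spot intensities that Agilent Feature Extraction 10.7.3.1 made from the scans, with background already subtracted in the processed signal, per the file headers. The deposited value table holds log2 values whose normalization is not given in the sources used here; it served as an alternative. Probe positions follow the build mm9, per the file headers.

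Each array's processed intensity was put on the log2 scale and its 75th percentile subtracted. Control spots and outlier spots were left out, and spots of a probe were averaged. Of the probes, 36874 were well above background on at least 3 arrays, and the brightest probe stood for a gene, which gave 31196 features, 20483 of them with a symbol. The 8 group means were fitted over all features with limma 3.58.1 in R 4.3.3 (16 residual and 2.24 prior degrees of freedom), giving 13 comparisons with Benjamini-Hochberg adjustment, called under 0.05. Every ± after a difference is the standard error of that fit.

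The genes and lists were chosen with earlier results of these data known. Named are the called genes and then, within a role, those with the smallest p. The procedure was tested on simulated data for null against WT sham females, on 31196 features: it recovered 35 of 100 changes of 1 and 68 of 100 changes of 2 on the log2 scale, with 6 unchanged features called. Alternatives were other background corrections, normalizations and filters, the deposited table, all probes, blocks for slide and replicate number, RIN, a trended fit, and omission of arrays. Figures were drawn with matplotlib 3.10.9 and tables made with pandas 2.3.3 (Python 3.11.15, numpy 2.4.6) and the R package data.table (1.17.8). A marker result that is not reported here was left out.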

Additional observations from a re-analysis of the deposited data

How the results depend on the processing

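Of 164 counts of called genes recomputed under alternatives other than leaving out an array, 30 moved and 0 turned in direction, and the cause of a move was not tested. The share of all features called moved too. Between the sexes in WT mice it was 2.00%, with 4.41% under the slide as a block and 3.43% under RIN. Where no share is given here or above, a count describes only these genes. For sham females against males in WT mice, where the count was 1, it was 21 with RIN as a covariate or the slide as a block, 9 without the 2 arrays of slide 4, 8 without the arrays whose sex-linked signal opposed the label, 3 with a trended robust fit, 2 with all probes and 2 with the filter on all 24 arrays. It was 0 with normexp and quantile normalization, with quantile normalization alone and with no filter. Under the deposited table the 1 gene called was Plk1, and without the arrays with albumin it was Kif23, in place of Ccnb1. In null mice, from 0, it was 14 with the slide as a block, 7 with RIN and 1 without slide 4. For the genotype average, from 1, it was 10 with RIN, 2 with the slide as a block, 2 with a trended fit, 2 without the arrays with albumin, and 0 without slide 4 or with no filter; under normexp, quantile normalization, the deposited table and the filter on all 24 arrays the 1 gene called was Mcm2, not Kif23. For genotype in castrated males it was 1 (Mcm2) with RIN, the slide as a block, normexp, the deposited table or without slide 4. For castration it was 2 in WT mice with the slide as a block, and 1 in null mice with the slide as a block or RIN (Cenpe).

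With the replicate number as a block, 8 genes were called between the sexes in WT mice, 3 in null mice and 8 for the genotype average. The share of all features called with this block is not given here. The number equals the slide for 22 of the 24 arrays, and the labels tie it to no animal. The mean correlation of same-numbered arrays, after taking off their group means, was 0.2255, against -0.1086 for arrays of other numbers, and the lowest of the same-numbered pairs was -0.3563.

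Leaving out each array in turn, the counts ranged from 0 to 5 between the sexes in WT mice, from 0 to 1 in null mice, from 0 to 6 for the genotype average and from 0 to 1 for genotype in castrated males, and were 0 in the other comparisons. The median difference of the genes ranged from 0.55 to 0.95 between the sexes in WT mice, from 0.58 to 1.09 in null mice and from 0.31 to 0.51 for the genotype average. Of 14 further probes of 10 genes, 11 had the sign of the brightest probe between the sexes in WT mice and 9 in the genotype average.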
